A study of Mus musculus with 6 samples.

Results

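The genes described here are 5 carbonic anhydrases (*Car2*, *Car4*, *Car9*, *Car12* and *Car13*), the sodium-proton exchangers *Slc9a2* and *Slc9a3*, and the bicarbonate transporters *Slc4a2* and *Slc4a7*. These 9 genes were chosen by their role in acid handling and with the genotype differences of the same arrays already known, and 1 probe set per gene was selected on the highest mean over the 6 arrays. Of the 9, 8 were among the 19938 genes measured by a probe set naming a single gene, each of them by 1 probe set; *Slc4a7* was not analysed here. Expression was measured with microarrays in esophageal epithelium of 3 month old mice on a mixed genetic background. The 3 mice labelled mutant carried *Klf4* with loxP sites on both copies and the Cre recombinase transgene ED-L2-Cre, whose promoter is active in squamous epithelia including that of the esophagus. The 3 controls were sex-matched littermates that also carried the floxed gene on both copies but had no Cre. Each genotype was represented by 1 male (replicate 1) and 2 females (replicates 2 and 3), with 1 array per animal.

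Carbonic anhydrases convert carbon dioxide and water to bicarbonate and protons, and back. CAR2 and CAR13 work in the cytosol, whereas CAR4, CAR9 and CAR12 are held in the membrane with the catalytic domain outside the cell. Sodium-proton exchangers of the SLC9 family expel protons, SLC4A2 exchanges chloride for bicarbonate and SLC4A7 brings bicarbonate in with sodium. In the esophagus, this machinery is known for protecting squamous cells against refluxed acid.

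The region upstream of *Slc9a3* is shown because this exchanger fell on the arrays labelled mutant and the targeted gene encodes a transcription factor, and that of *Car12* because *Car12* is a bright member whose difference did not pass. Both are the 250 bases before the RefSeq gene start in assembly GRCm38.p6, on the plus strand, at chr13:74121163-74121412 for *Slc9a3* and chr9:66713436-66713685 for *Car12*. Capitals mark CACCC, the core of the sequence bound by Krüppel-like factors, searched on both strands (CACCC or GGGTG). The sequence was matched for 6 of the 9 members. It was not matched for *Car2*, *Car13* and *Slc9a2*, so the region of *Car2* could not be examined.

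Slc9a3: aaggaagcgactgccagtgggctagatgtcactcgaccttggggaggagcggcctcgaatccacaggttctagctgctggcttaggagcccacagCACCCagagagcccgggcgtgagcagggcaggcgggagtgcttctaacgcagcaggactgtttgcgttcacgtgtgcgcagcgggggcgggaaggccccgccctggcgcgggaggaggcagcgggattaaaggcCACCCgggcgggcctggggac

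Car12: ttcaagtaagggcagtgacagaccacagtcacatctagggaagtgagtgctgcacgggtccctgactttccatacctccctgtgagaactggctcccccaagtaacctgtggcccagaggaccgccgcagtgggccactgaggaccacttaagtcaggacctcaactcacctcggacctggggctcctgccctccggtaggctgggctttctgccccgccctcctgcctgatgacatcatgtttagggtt

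The *Slc9a3* window held 2 copies, both on the plus strand, beginning 155 and 21 bases before the gene start, and the *Car12* window held none. Of all 32851 upstream windows of the same length, 52% held at least 1 copy and 21.1% at least 2. The other windows held 1 copy for *Car4*, 1 for *Car9*, none for *Slc4a7*, and 1 and none for the 2 alternative starts of *Slc4a2*. A match describes these letters only, and binding was not measured.

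The targeted gene, *Klf4*, did not read lower on the arrays labelled mutant. Its probe set 10513008 gave log2 values of 10.28, 10.50 and 10.28 in the 3 mice labelled mutant and of 9.75, 10.15 and 10.06 in the 3 labelled control. The difference of 0.37 ± 0.13 (SE) did not pass (limma adjusted p = 0.314), and the sources used here do not say whether the probes lie in the part that Cre removes. Directions below therefore rest on the labels. Genes were called at an adjusted p of 0.05 in limma over all 19938 genes, and a gene was marked dim when its mean over the 6 arrays lay below 4.72, the 40th percentile of all genes. Suprabasal markers of squamous epithelium were bright, with a mean between 13.29 and 13.42 on the arrays labelled mutant and between 13.29 and 13.43 on those labelled control. Skeletal muscle markers were also read in these samples, and none of the 6 was dim. Their list means varied between arrays, at 6.40 to 9.23 under the mutant label and 6.28 to 10.44 under the control label. All 6 were lower under the mutant label, but the groups overlapped and none passed. Fibroblast markers moved with the label. All 8 were lower, with a list mean of 7.50 to 7.73 on the arrays labelled mutant and 8.28 to 9.06 on those labelled control, and *Col1a2*, *Sparc* and *Thy1* passed (adjusted p = 0.0273, 0.0312 and 0.0479), though in only 10, 9 and 3 of 15 alternative settings. All 6 smooth muscle markers were also lower, and none passed. Their list means were 7.32 to 8.24 under the mutant label and 8.49 to 9.15 under the control label. Of the 6, 5 had an unadjusted p under 0.05, as had 12.4% of all genes. The smooth muscle marker *Des* was lowest on mutant replicate 3 and control replicate 1 (6.21 and 7.43), also the arrays lowest in skeletal muscle markers. Of 6 macrophage and T cell markers, *Cd68*, encoding a lysosomal glycoprotein abundant in macrophages, was higher (7.58, 8.25 and 7.88 on the arrays labelled mutant and 6.79, 6.73 and 6.86 on those labelled control; adjusted p = 0.0304; passing in 8 of 15 settings). The other 5 did not pass, and the list means overlapped, at 5.21 to 5.66 under the mutant label and 5.05 to 5.50 under the control label. Fewer cells of a type and less RNA per cell cannot be told apart in such bulk samples.

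**Figure D1:**
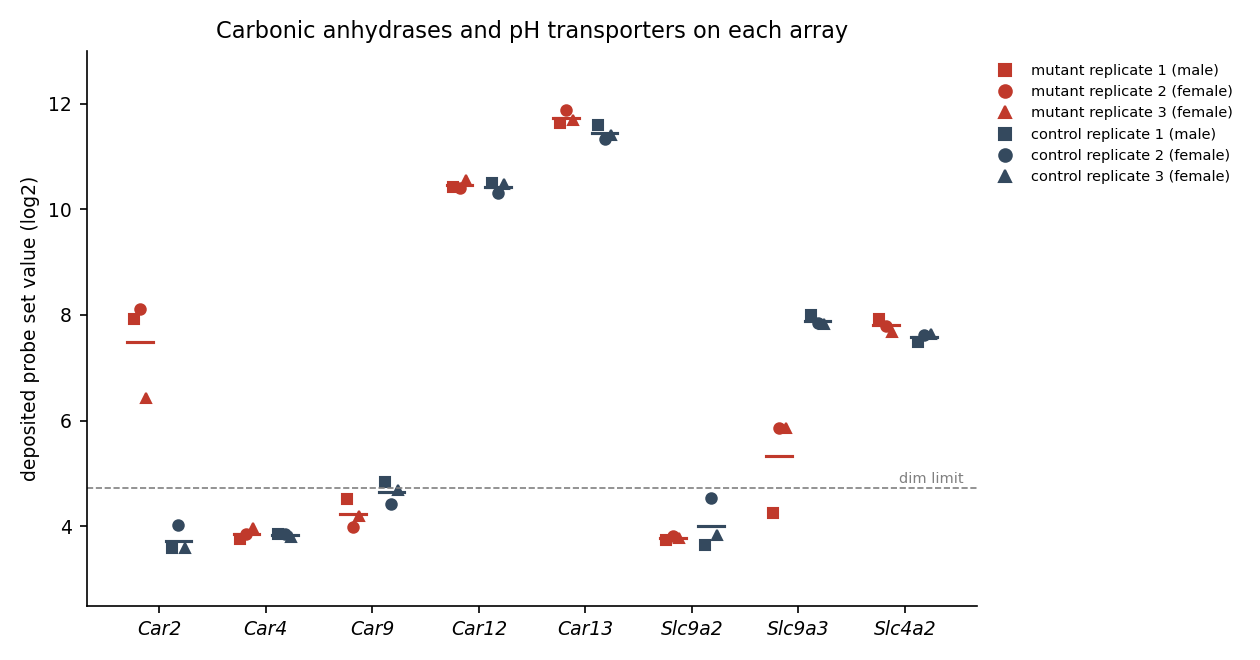
Deposited log2 values of the 8 measured members on each array, labelled mutant (left of each pair, red) and labelled control (right, blue); horizontal bars are group means and the dashed line is the dim limit of 4.72. *Car2* read 6.43 or more on every array labelled mutant against at most 4.02 on the others, and *Slc9a3* read at most 5.87 against at least 7.83.

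Among the members, the cytosolic carbonic anhydrase *Car2* was higher on the arrays labelled mutant, the exchanger *Slc9a3* was lower, and the other 6 did not pass the test. Thus 1 of 8 was called higher, where 0.366% of all genes were, and 1 of 8 lower, where 0.672% were; in either direction the share over all genes was 1.04%. Nothing is read from these counts, since the members were picked with this comparison known. The plot of the members on each array shows both genes with separate groups, as had *Car13* and *Slc4a2* with far smaller differences, so 4 of 8 members did not overlap, and 18.1% of all genes did not. Over the 8 members the median difference was 0.029 (log2), and over all genes tested it was 0.022.

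*Car2* (probe set 10490923), encoding a fast cytosolic carbonic anhydrase known from acid-secreting cells and red blood cells, read 7.93, 8.11 and 6.43 on the arrays labelled mutant and 3.58, 4.02 and 3.59 on the arrays labelled control. All 3 control values lay below the dim limit and all 3 mutant values above it, with mutant replicate 3 the lowest of its group. The means were 7.49 ± 0.92 under the mutant label and 3.73 ± 0.25 under the control label (SD, n = 3 each), a 13.5-fold difference (3.76 ± 0.41 on the log2 scale, SE; 95% interval 2.80 to 4.71; limma adjusted p = 0.0118). Because the control signal is dim, this fold and its interval are not a reliable size. Set against the dim limit in place of the control mean, the mutant mean was 6.82-fold higher, or 2.77 on the log2 scale. The call was lost without control replicate 3 (3.69, adjusted p = 0.0639) and in the 4 females alone (3.46, adjusted p = 0.0703).

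Markers of red blood cells and of gastric glands, which are known for *Car2*, were mostly dim where measured. The red blood cell markers *Alas2*, *Slc4a1* and *Epb42*, the 3 of 7 list entries that were measured, all lay below the dim limit, and the globin genes were not among them. All 3 were higher under the mutant label, with list means of 4.20 to 4.39 on the arrays labelled mutant and 4.04 to 4.19 on those labelled control. Of 12 gastric and glandular markers, 9 were dim, including the parietal cell pump genes *Atp4a* and *Atp4b*, and *Krt8*, *Krt19* and *Tff1* were not. The list means were 4.46 to 4.73 under the mutant label and 4.51 to 4.65 under the control label. Of the gastric and glandular markers, 5 were higher and 7 lower. No marker of either list passed. At an unadjusted p under 0.05 the counts were 1 red blood cell marker, *Alas2*, and 0 gastric markers, where the share over all genes was 12.4%. The part of either cell type in the values of *Car2* was not tested.

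*Car13* (probe set 10490903), the other cytosolic enzyme among the members, read 11.63, 11.88 and 11.69 on the arrays labelled mutant and 11.59, 11.33 and 11.41 on the arrays labelled control. The groups did not overlap, by a margin smaller than the spread within either group. Its difference of 0.29 ± 0.11 (SE; 95% interval 0.025 to 0.56) did not pass (adjusted p = 0.351). In the GRCm38.p6 annotation *Car13*, *Car1*, *Car3* and *Car2* are neighbouring protein-coding genes on chromosome 3, in that order. *Car1*, which encodes a red blood cell carbonic anhydrase, was dim and differed by -0.10 ± 0.13 (adjusted p = 0.820).

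*Car3*, the direct neighbour of *Car2*, encodes an enzyme abundant in muscle and fat, and is named here after its values were seen. It read 10.56, 9.87 and 6.47 on the arrays labelled mutant and 6.14, 12.17 and 10.76 on those labelled control. The groups overlapped fully, and the difference of -0.72 ± 1.61 did not pass (adjusted p = 0.913). The mean of 6 skeletal muscle markers, such as the creatine kinase gene *Ckm*, was 9.23, 8.77 and 6.40 on the arrays labelled mutant and 6.28, 10.44 and 9.70 on those labelled control. The arrays with the lowest *Car3*, mutant replicate 3 and control replicate 1, were also those with the lowest muscle markers, as the plot of *Car3* against these markers shows. In replicate order, *Car2* read 7.93, 8.11 and 6.43 under the mutant label and 3.58, 4.02 and 3.59 under the control label. Among the arrays labelled mutant it was thus also lowest on replicate 3, and all its control values lay below the dim limit. The part of muscle RNA in the values of *Car2*, within a label or between labels, was not tested.

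**Figure D2:**
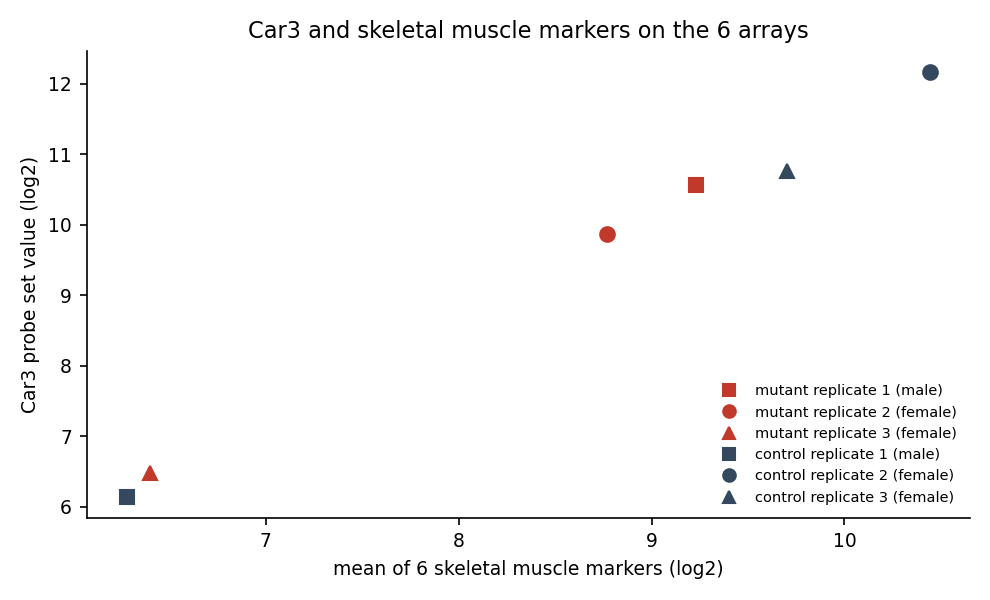
*Car3* value (vertical axis, log2) against the mean of 6 skeletal muscle markers (horizontal axis, log2) on each of the 6 arrays, labelled mutant in red and labelled control in blue. Mutant replicate 3 and control replicate 1 sit at the low end of both axes, and the other 4 arrays, from both groups, lie at 8.77 or more for the markers.

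The membrane-bound carbonic anhydrases gave small differences. *Car12* (probe set 10586591), encoding a transmembrane enzyme common in epithelia, read 10.42, 10.40 and 10.56 on the arrays labelled mutant and 10.49, 10.30 and 10.48 on the arrays labelled control. The groups overlapped, and the 95% interval of the difference, -0.20 to 0.27 around 0.036 (log2), spans a 1.15-fold lower to a 1.21-fold higher signal (adjusted p = 0.932). *Car9* (probe set 10504337), a hypoxia-inducible transmembrane enzyme, read 4.52, 3.998 and 4.20 on the arrays labelled mutant and 4.85, 4.43 and 4.68 on those labelled control. It was dim, with the groups overlapping at mutant replicate 1, and its difference of -0.42 ± 0.16 (SE; 95% interval -0.80 to -0.032) did not pass (adjusted p = 0.357). *Car4* (probe set 10379866), encoding an enzyme held on the cell surface by a lipid anchor, was dim, with 3.76 to 3.98 on the arrays labelled mutant and 3.81 to 3.86 on those labelled control. Its difference was 0.023 (95% interval -0.20 to 0.25, adjusted p = 0.953). At the dim limit itself, *Car9* lay just below with a mean of 4.45 over the 6 arrays, and *Car2* was the next member above it, at 5.61.

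*Slc9a3* (probe set 10406176), encoding the exchanger NHE3 that is best known from the apical membrane of kidney and gut, read 4.25, 5.87 and 5.87 on the arrays labelled mutant and 8.0, 7.86 and 7.83 on the arrays labelled control. The 3 controls lay close together, the 2 mutant females lay lower at nearly equal values, and the mutant male was lowest and under the dim limit. The means were 5.33 ± 0.93 under the mutant label and 7.89 ± 0.092 under the control label (SD, n = 3 each). The signal was 5.92-fold lower (-2.56 ± 0.40 on the log2 scale, SE; 95% interval -3.50 to -1.63; limma adjusted p = 0.0353). Because the mutant male value lies under the dim limit, the size of this fold is uncertain. In females alone the difference was -1.97 ± 0.13 and passed (limma adjusted p = 0.0122). It did not pass without control replicate 1, 2 or 3 (adjusted p = 0.0724, 0.0869 and 0.141), nor without mutant replicate 2 or 3 (adjusted p = 0.0614 and 0.0631). The lower fibroblast markers on the same arrays were given above, and their part in this difference was not tested.

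*Slc9a2* (probe set 10345855), encoding the related exchanger NHE2, was dim and read 3.74, 3.81 and 3.79 on the arrays labelled mutant and 3.65, 4.54 and 3.84 on those labelled control. Control replicate 2 stood above the other 5 arrays, and the difference of -0.23 ± 0.21 (SE; 95% interval -0.73 to 0.27) did not pass (adjusted p = 0.741); without that array it was 0.032. *Slc4a2* (probe set 10520187), encoding the chloride-bicarbonate exchanger AE2, read 7.93, 7.80 and 7.68 on the arrays labelled mutant and 7.48, 7.62 and 7.64 on those labelled control. The groups were adjacent without overlap, and the difference of 0.22 ± 0.11 (SE; 95% interval -0.022 to 0.47) did not pass (adjusted p = 0.457).

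**Figure D3:**
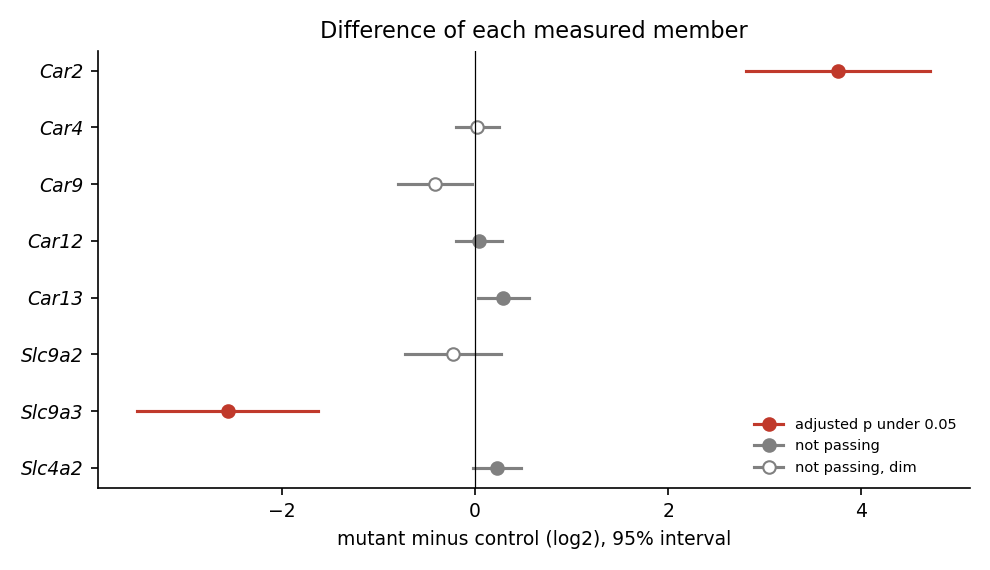
Difference of each measured member, arrays labelled mutant minus arrays labelled control (horizontal axis, log2), with its 95% interval from limma; red points passed an adjusted p of 0.05 and open points are dim members. The intervals of *Car2* (2.80 to 4.71) and *Slc9a3* (-3.50 to -1.63) lie far from 0, and those of the other 6 members lie between -0.80 and 0.56.

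The choice of members did not use the comparison between sexes. The genotype difference of *Slc9a3* was -3.75 in the male pair and -1.97 in females, and the difference between the sexes was -1.77 ± 0.22 (log2, SE; unadjusted p = 0.000169, limma adjusted p = 0.168), which did not pass. For *Car2* the differences were 4.35 in the male pair and 3.46 in females (limma adjusted p = 0.9998 for the interaction). None of the 8 members passed the interaction test in limma, where 9 of all genes, or 0.0451%, passed. At an unadjusted p under 0.05 there was 1 of the 8 members, *Slc9a3*, and 5.82% of all genes. With 1 male per genotype, the male difference rests on a single pair of animals. The SE and p of each interaction therefore hold no spread between males.

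Genes whose values over the 6 arrays were most like these 2 members were taken by Pearson's correlation among genes that were not dim. For *Car2* they were the cystine transporter gene *Slc7a11* (r = 0.996), *Endou* (r = 0.996) and the small proline-rich pseudogene *Sprr2j-ps* (r = 0.995), with differences of 0.88, 0.42 and 1.21, all smaller than that of *Car2*. For *Slc9a3* they were *Nlrp10* (r = 0.998), the flavin monooxygenase gene *Fmo2* (r = 0.995) and the envoplakin gene *Evpl* (r = 0.995), with differences of -1.99, -1.18 and -1.03. Of the genes most like *Car2*, *Slc7a11* and *Sprr2j-ps* passed (limma adjusted p = 0.0164 and 0.0147) and *Endou* did not (limma adjusted p = 0.111). Of those most like *Slc9a3*, *Nlrp10* and *Evpl* passed (limma adjusted p = 0.034 and 0.037) and *Fmo2* did not (limma adjusted p = 0.0693). These correlations describe 6 arrays that fall into the same 2 groups. The genes were picked for likeness to a called member, so their limma results are not independent of that choice.

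Beyond the members, 89 other genes of acid and bicarbonate handling were measured, of which 2 fell, none rose and 87 did not pass; 2.25% were called, against 1.04% of all genes. The genes that fell were *Atp6v1c2* and *Slc26a9*. The median difference of the 89 was 0.038, against 0.022 over all genes, and 40 of them were dim.

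*Atp6v1c2* (probe set 10399559) encodes an isoform of the C subunit of the V-ATPase, the proton pump of lysosomes and of some epithelial membranes. It read 7.01, 7.75 and 7.57 on the arrays labelled mutant and 8.95, 8.86 and 8.81 on those labelled control, with no overlap and mutant replicate 1 lowest. The signal was 2.70-fold lower (-1.43 ± 0.18, SE; 95% interval -1.86 to -1.01; adjusted p = 0.0169), and the call was lost without control replicate 2 (adjusted p = 0.0517), control replicate 3 (adjusted p = 0.0873) or mutant replicate 3 (adjusted p = 0.0540). *Atp6v1c1*, encoding the other C subunit isoform and named for that reason, differed by 0.022 (95% interval -0.30 to 0.34, adjusted p = 0.968). Of the 24 measured subunits and accessory proteins of the V-ATPase, 1 fell and 23 did not pass, so 4.17% were called, against 1.04% of all genes. The groups did not overlap for 33.3% of the 24 and for 18.1% of all genes. The list of proton pumps and the proton channel, 28 genes with *Atp12a*, *Atp4a*, *Atp4b* and *Hvcn1*, had a median of 0.064, and 7 of its genes had an unadjusted p under 0.05, a level reached by 12.4% of all genes.

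*Slc26a9* (probe set 10349671), encoding a chloride transporter of airway and gastric surface epithelium, read 8.97, 9.22 and 9.33 on the arrays labelled mutant and 10.16, 9.80 and 10.05 on those labelled control. The groups did not overlap, and the signal was 1.78-fold lower (-0.83 ± 0.14, SE; adjusted p = 0.0436). This call is close to the threshold: it was lost without each of the 6 arrays in turn (adjusted p between 0.0502 and 0.189). The remaining 11 genes of the SLC26 and *Cftr* list did not pass.

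**Figure D4:**
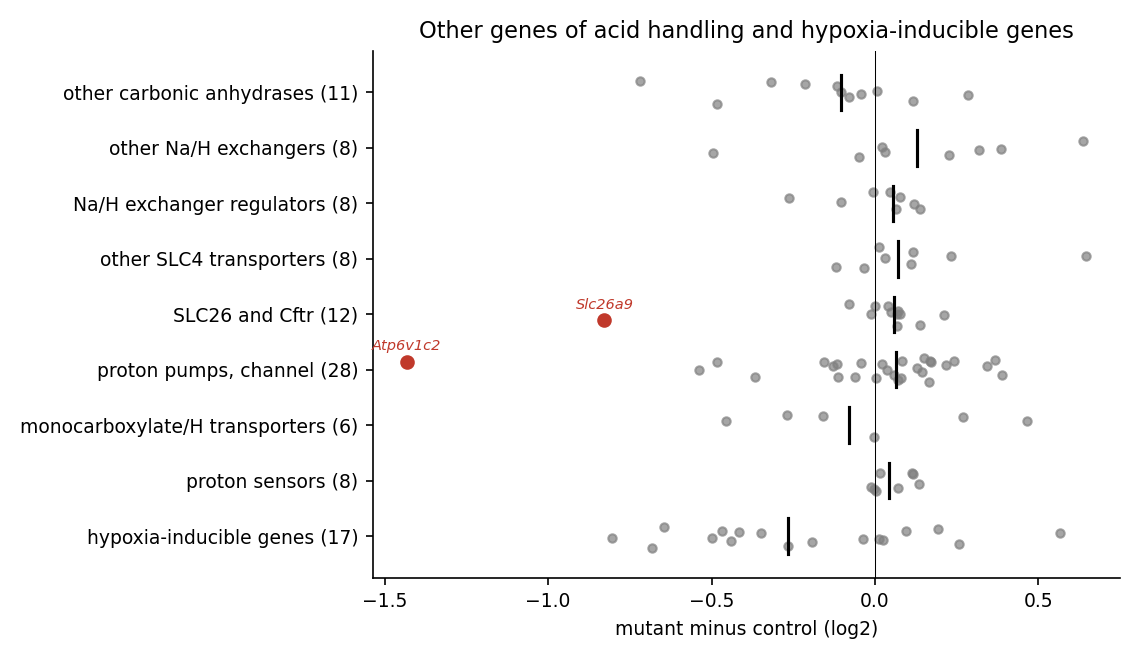
Mutant minus control difference by label (horizontal axis, log2) of each measured gene on 9 lists, with the number of genes in brackets; red points passed, black bars are list medians and vertical scatter has no meaning. *Atp6v1c2* and *Slc26a9* are the 2 genes that passed, and list medians lie between -0.26 and 0.13.

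None of the other lists held a gene that passed. For the counts below at an unadjusted p under 0.05, the share over all genes was 12.4%. Among 8 further sodium-proton exchangers, the Golgi exchanger *Slc9a8* differed by -0.49 ± 0.14 and the organelle exchanger *Slc9a7* by 0.64 ± 0.20 (SE; adjusted p = 0.193 and 0.219), and 4 had an unadjusted p under 0.05. Among 8 regulators of these exchangers, the scaffold gene *Slc9a3r1*, whose product NHERF1 binds NHE3, differed by 0.14 ± 0.094 and *Tesc*, encoding a calcium-binding partner of such exchangers, by -0.26 ± 0.18; 0 had an unadjusted p under 0.05. Among 8 further SLC4 genes, *Slc4a11*, best known from the corneal endothelium, differed by 0.65 ± 0.22 and the dim *Slc4a9* by 0.23 ± 0.10 (adjusted p = 0.279 and 0.402), and 2 had an unadjusted p under 0.05. The 11 further carbonic anhydrase genes had a median of -0.10, 7 of them were dim, and 1 had an unadjusted p under 0.05. That 1 was *Car10*, encoding a related protein without enzyme activity, which differed by 0.28 ± 0.087, and the similar *Car8* differed by -0.21 ± 0.12; both were dim.

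Differences ranged from -0.46 to 0.47 among proton-linked monocarboxylate transporter genes and from -0.013 to 0.14 among proton sensor genes. Among 6 proton-linked monocarboxylate transporter genes, *Emb*, encoding a partner protein of these transporters, differed by 0.47 ± 0.19 and *Slc16a8* by 0.27 ± 0.14. Of these 6, 1 had an unadjusted p under 0.05, as had 12.4% of all genes. Of 8 proton sensor genes, 6 were dim, and the receptor gene *Gpr4* and the ion channel gene *Asic2* differed by 0.11 ± 0.10 and 0.12 ± 0.11 (SE), with none under an unadjusted p of 0.05. In the plot of list differences these lists centre near 0.

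Hypoxia-inducible genes were measured because *Car9* is one of their number. Of 17, 11 were lower and 6 higher on the arrays labelled mutant, with a median of -0.26, none passed and 7 had an unadjusted p under 0.05. Over all genes 8864 were lower and 11068 higher, and 12.4% had an unadjusted p under 0.05. *P4ha1*, encoding a subunit of collagen prolyl hydroxylase, differed by -0.65 ± 0.12 and the oxygen-sensing prolyl hydroxylase gene *Egln3* by -0.80 ± 0.15 (SE; adjusted p = 0.0662 and 0.0693). The fibroblast markers were lower on the same arrays, and their part in these values was not tested.

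**Figure D5:**
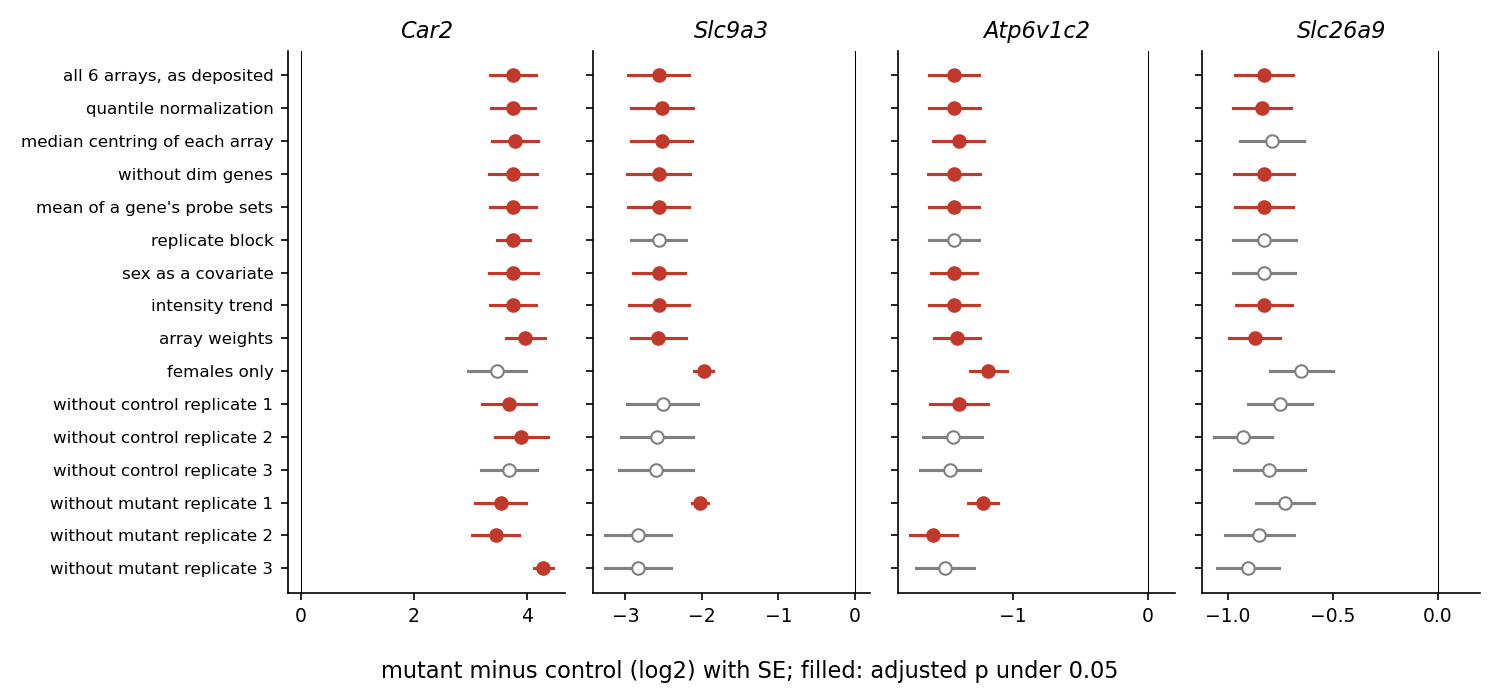
Mutant minus control difference by label (horizontal axes, log2, with SE) of the 4 genes that passed, under each setting of the fit; filled points passed an adjusted p of 0.05. The direction is the same at every setting shown, *Car2* ranges from 3.45 to 4.29, and *Slc26a9* passes at the fewest alternatives, 5 of 15.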

How the data were processed

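A biotin-labelled sample made from the RNA of each animal was hybridised to 1 array. The authors deposited log2 values of 28853 probe sets. Partek 6.4 is named in the submitters' processing notes; how background was corrected and values were normalized and summarized is not given in the sources used here. These steps affect how strongly differences of dim genes are compressed. Array medians lay between 5.01 and 5.13. Arrays have no read depth, so their number limits the precision.

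Of the probe sets, 21789 named 1 gene in the platform annotation, 1621 named several and 5443 were unnamed here; 21698 symbols were updated through Entrez identifiers and 91 kept. Of 182 list entries, 173 were matched. The genotype comparison used limma 3.58.1 under R 4.3.3 (functions lmFit and eBayes, genotype as the only term, 7.58 degrees of freedom after moderation, two-sided) with Benjamini-Hochberg adjustment over all 19938 genes. Exact permutation of 3 against 3 arrays cannot go below p = 0.1 and was not used. The steps were tested on simulated data.

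The members and lists were chosen with earlier results of these data known. Named genes were the members, *Klf4*, passing genes of each list (or the 2 with the smallest p) and the 3 genes most like each passing member; exceptions are stated. Alternatives covered normalization, dim genes, probe sets, replicate number, sex, intensity trend, array weights and each array left out. Each array was a separate animal, per the series design. Plots were drawn with Python 3.11.15 and matplotlib 3.10.9.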

Additional observations from a re-analysis of the deposited data

How the results depend on the processing

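The number of genes called, 207, stayed within 1.5 times under quantile normalization, median centring, removal of dim genes, averaging of probe sets, sex as a covariate and an intensity trend. It was 370 with array weights, 83 in females only, and between 44 (without control replicate 3) and 193 when 1 array was left out. It was 106 without control replicate 2, 93 without mutant replicate 1, 93 without mutant replicate 2 and 102 without mutant replicate 3. With the replicate number as a block it was 81. Deviations of same-numbered arrays correlated at -0.17, 0.090 and -0.10 over genes for replicates 1, 2 and 3. Mutant replicate 3 and control replicate 1, the arrays lowest in skeletal muscle markers, correlated at 0.31. Such values therefore cannot show whether equal numbers mark paired littermates, and the main fit did not use the numbers as pairs. With the block *Car2* kept its call (adjusted p = 0.0157), and *Slc9a3*, *Atp6v1c2* and *Slc26a9* did not pass (adjusted p = 0.0634, 0.0541 and 0.108). Of 15 alternatives, *Car2* passed in 13, *Atp6v1c2* in 11, *Slc9a3* in 9 and *Slc26a9* in 5. The other 6 members passed in none. Signs turned for *Car12* with array weights (-0.0081), without control replicate 2 (-0.027) and without mutant replicate 3 (-0.014), for *Slc9a2* without control replicate 2 (0.032) and for *Car4* without mutant replicate 3 (-0.033), all near 0. Without 1 array at a time, *Car12* lay between -0.027 and 0.070, *Slc9a2* between -0.41 and 0.032 and *Car4* between -0.033 and 0.074. Removing dim genes left no value for *Car4*, *Car9* and *Slc9a2*, and averaging probe sets did not alter the members, which have 1 each. The cause of these changes was not tested. Dim signal limits *Car4*, *Car9*, *Slc9a2*, the control values of *Car2* and the value of *Slc9a3* on mutant replicate 1.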
